A study of Mus musculus with 9 samples.

Results

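The genes described here are those of NRF2 signalling, glutathione metabolism and peroxide defence in mouse heart. They were taken by symbol from a list of 39, and 38 of these stand among the 13795 genes of the deposited table (Slc7a11 was not analysed here). The hearts came from C57BL/6 mice that received vehicle (4 samples) or 10 mg/kg of oxaliplatin, a platinum-based chemotherapy agent (5 samples). Treatment lasted 8 weeks, and only RNA with an integrity number over 8 was sequenced. The labels give no genetic change in either group, and the sources used here do not state the age or sex of the mice, the number of injections or the substrain. They also do not say that each sample is 1 animal, so the p-values reflect the variation among the samples as deposited, part of which may be technical.

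NRF2, encoded by Nfe2l2, is a transcription factor that KEAP1 holds in the cytoplasm and delivers to degradation. Oxidants and electrophiles modify KEAP1, after which NRF2 reaches the nucleus and, with small MAF partners, binds antioxidant response elements near genes of glutathione synthesis, thioredoxin reduction, quinone reduction and NADPH supply. Superoxide dismutases turn superoxide into hydrogen peroxide, and catalase, glutathione peroxidases and peroxiredoxins reduce that peroxide. Heart muscle, rich in mitochondria, depends on these enzymes in each cell compartment.

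The core of the antioxidant response element, spelled TGAC, any 3 bases and then GC, was searched for on both strands in the 250 bases before the gene start, in RefSeq sequence on GRCm38.p6. A promoter was matched for 33 of the 38 genes, and 6 of the 33 held the core before at least 1 of their listed starts (18.2%), against 1412 of 10072 tested genes (14.0%) and 3112 of 27025 symbols in all (11.5%). The 6 were Nfe2l2, Gclm, Txnrd1, Mgst1, Sod1 and Prdx1. The stretches below are shown because Nfe2l2 rose and Sod1 fell while both hold the same core, and because Gclm, Txnrd1 and Prdx1 are known targets that hold it and did not pass the test. Each is written 5′ to 3′ on the strand of the gene, with the core in capitals. The core in Nfe2l2 begins with TGAC on the gene's strand, and in the other 4 it lies on the opposite strand and ends with GTCA. The Nfe2l2 stretch overlaps an exon of a noncoding gene on the opposite strand, and the other 4 lie in no annotated exon of GENCODE M21.
Nfe2l2, chr2:75704870-75704913, minus strand: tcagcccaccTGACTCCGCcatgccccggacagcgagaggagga
Gclm, chr3:122245398-122245456, plus strand: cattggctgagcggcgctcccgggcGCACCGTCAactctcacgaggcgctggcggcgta
Prdx1, chr4:116685441-116685499, plus strand: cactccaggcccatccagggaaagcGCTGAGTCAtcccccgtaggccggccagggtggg
Txnrd1, chr10:82859089-82859147, plus strand: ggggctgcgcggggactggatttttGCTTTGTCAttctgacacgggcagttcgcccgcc
Sod1, chr16:90220681-90220739, plus strand: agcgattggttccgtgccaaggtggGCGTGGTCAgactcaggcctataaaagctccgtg
Nfe2l2, Gclm, Prdx1 and Sod1 have 1 listed start each. Txnrd1 has 3, and the stretch shown precedes 1 of them, which lies inside the gene model (chr10:82833951-82897712), downstream of its first start. The first base of the core, counted from the RefSeq start that it precedes, lies at -240 in Nfe2l2, -134 in Gclm, -133 in Prdx1, -92 in Txnrd1 and -56 in Sod1. A match of letters is a description of the sequence and says nothing of binding.

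The values are normalized counts, with totals of 29.4 M to 36.9 M per sample and an estimated depth of 28.5 M to 36.2 M reads. Cardiomyocyte markers were abundant in each sample, as the label heart requires, with 1948099 to 2410117 normalized counts over 12 genes in vehicle samples and 1473126 to 2144009 in oxaliplatin samples. Samples differed in tissue content within the groups. The score of 10 atrial markers, the mean centred log2 level, was 2.43 in vehicle 1, 3.28 in oxaliplatin 2 and 2.88 in oxaliplatin 4, and ran from -3.77 to 0.99 in the other 6. The score of 10 erythroid markers was 0.59 to 1.56 in vehicle samples, 1.52 in oxaliplatin 3 and -2.61 to -0.91 in the other 4 oxaliplatin samples. Results are therefore also given with either score as a covariate and without the 3 samples of high atrial score. Apart from oxaliplatin 3 the erythroid score followed the groups, so the fit with it separates score and treatment mainly through that sample. A call lost in that fit therefore decides nothing about the part of erythroid content.

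Among the 38 genes, 5 rose and 3 fell with oxaliplatin, and 30 did not pass. Those that rose were the peroxidases Gpx7, Gpx1 and Prdx4, the extracellular superoxide dismutase Sod3 and the regulator Nfe2l2. Those that fell were the cytosolic superoxide dismutase Sod1, the peroxisomal and mitochondrial glutathione transferase Gstk1 and malic enzyme Me1. Genes passed with a Benjamini-Hochberg adjusted p under 0.05 from limma over 13788 genes. The share that passed was 21.1% of the 38 genes against 14.3% of all genes, 9.23% of all genes being higher and 5.03% lower. Calls over all genes were higher in 64.7% (1272 of 1966), and in 54.4% after quantile normalization. The median log2 fold change of the 38 genes was -0.11, with 15 positive and 23 negative, beside -0.02 over all genes tested. Of the 38, 14 had an unadjusted p under 0.05 in limma, against 3970 of all 13788 genes tested. In bulk tissue, fewer cells of a type and less RNA per cell cannot be told apart.

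**Figure D1:**
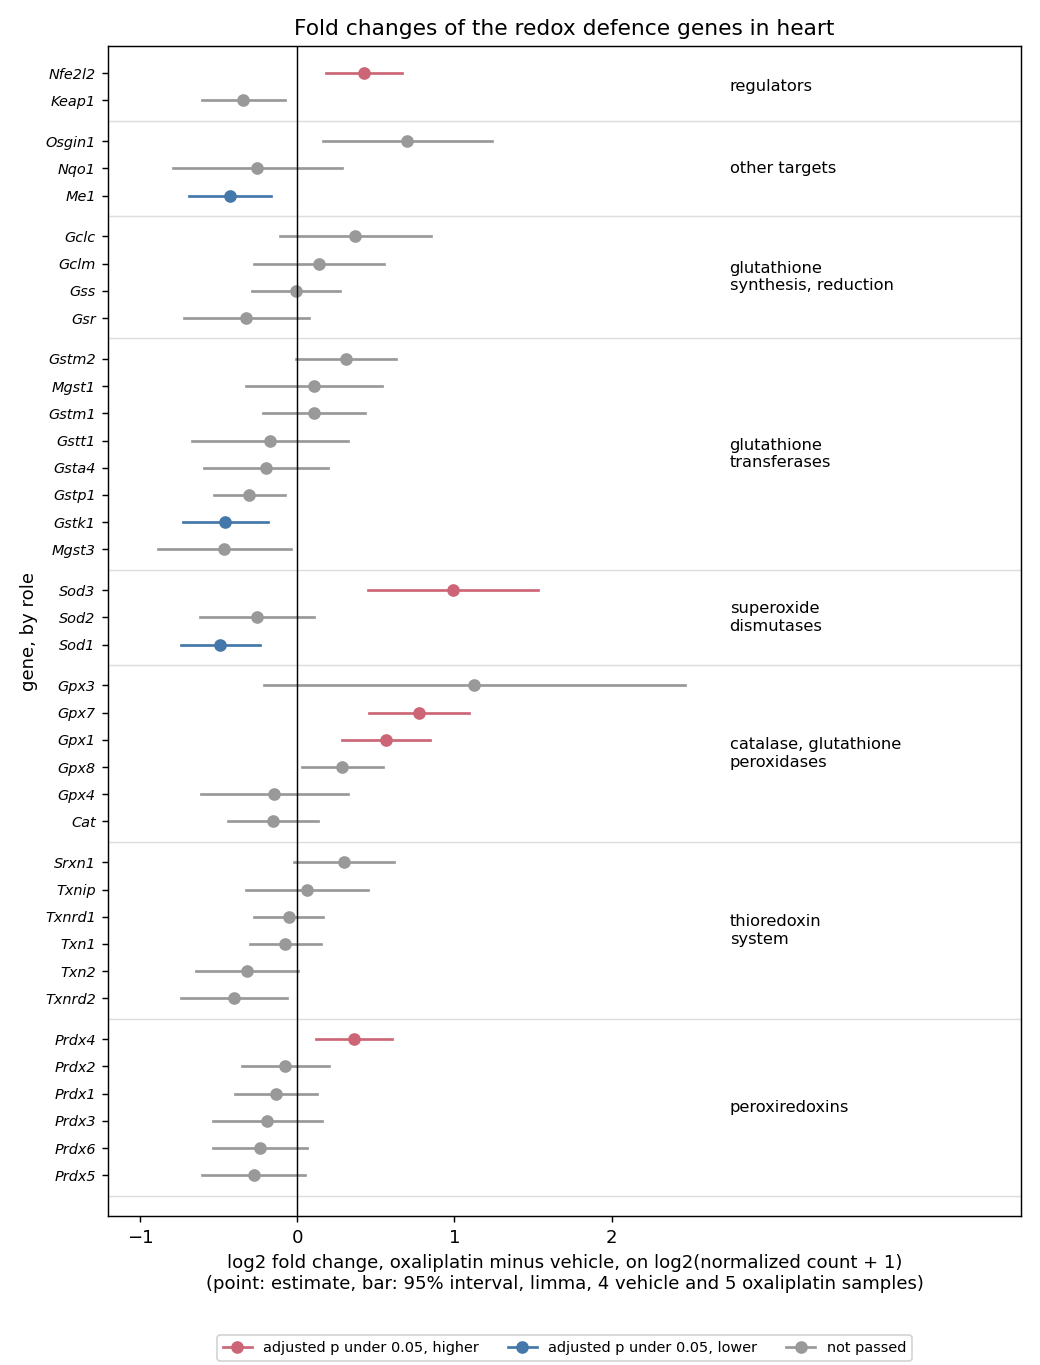
Log2 fold changes of the 38 genes, oxaliplatin minus vehicle, on the horizontal axis, with genes in blocks by role. Points are limma estimates and bars 95% intervals over 4 vehicle and 5 oxaliplatin samples. The 5 genes that rose are red and the 3 that fell are blue, and Gpx3 has the widest interval, from -0.21 to 2.47.

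Not all of the 8 calls were equally stable. Gpx7 and Gpx1 passed in each of 9 fits that left out 1 sample, Sod1 in 7, Sod3 in 6, Nfe2l2 in 5, Gstk1 in 4, Me1 in 3 and Prdx4 in none. After adjustment for the erythroid score, at which 6.99% of all genes passed, Gpx1, Gpx7 and Gstk1 passed. The other 5 had log2 fold changes of 1.06 (Sod3), 0.43 (Nfe2l2), 0.43 (Prdx4), -0.58 (Sod1) and -0.47 (Me1) there. After adjustment for the atrial score, at which 19.5% of all genes passed, all 8 passed in the same direction, and Gpx3, Gstm2 and Osgin1 (higher) and Txnrd2 and Gstp1 (lower) were added. Without the 3 samples of high atrial score, where 11.6% of all genes passed, Gpx7, Gpx1, Sod3 and Gpx3 were higher and 0 of the 38 genes were lower in limma, with 6 lower at an unadjusted p under 0.05.

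The regulator NRF2 rose at the level of its RNA. Nfe2l2 (chr2:75675513-75704641 in GENCODE M21 on GRCm38, as for all genes below) had 1881, 2297, 2204 and 2144 normalized counts in vehicle samples 1 to 4, and 3244, 2429.9, 2713, 2957 and 2987 in oxaliplatin samples 1 to 5. Each oxaliplatin sample lay above each vehicle sample, with oxaliplatin 1 highest. The log2 fold change was 0.42 ± 0.11 (SE; adjusted p = 0.0241 by limma). Adjusted p was 0.0802 when vehicle 1 was left out, 0.0564 for vehicle 3, 0.0559 for oxaliplatin 4, 0.0575 for oxaliplatin 5 and 0.0749 for the 3 samples of high atrial score together. After adjustment for the erythroid score Nfe2l2 had a log2 fold change of 0.43 at adjusted p = 0.143.

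Keap1, which encodes the NRF2 inhibitor, measured 1875, 1951, 2017 and 2284 in vehicle samples and 1888, 1316, 1483, 1567 and 1805 in oxaliplatin samples. Only oxaliplatin 1 reached into the range of the vehicle samples. Its log2 fold change of -0.34 ± 0.12 (SE) did not pass (adjusted p = 0.0813). It did pass after quantile normalization (adjusted p = 0.0358), with weights per sample (0.0271) and without oxaliplatin 1 (0.0373).

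Typical NRF2 targets outside glutathione and thioredoxin metabolism gave unlike values. Me1 (chr9:86581371-86695953), cytosolic malic enzyme and a source of NADPH, had 774, 927, 985 and 1059 normalized counts in vehicle samples and 692, 625, 649, 687 and 816 in oxaliplatin samples. It fell by 0.43 on the log2 scale (SE 0.12, adjusted p = 0.0328), with vehicle 1 below oxaliplatin 5. Adjusted p of Me1 was above 0.05 without vehicle 2 (0.0789), 3 (0.0992) or 4 (0.0755), without oxaliplatin 2 (0.0508), 3 (0.0754) or 4 (0.0670), without the 3 samples of high atrial score (0.0633) and with the erythroid score (0.134). Nqo1, the quinone reductase often used as a readout of NRF2, ranged from 1602 to 2616 in vehicle samples and from 1229 to 2684 in oxaliplatin samples. Its difference of -0.25 had a 95% interval of -0.79 to 0.29 (adjusted p = 0.540), and the vehicle samples of Nqo1 all lay within the oxaliplatin range. Osgin1, a growth inhibitor induced by oxidative stress, had 212, 247, 161 and 251 in vehicle samples and 613, 267, 236, 372 and 361 in oxaliplatin samples. Oxaliplatin 1 had the highest Osgin1 and oxaliplatin 3 lay within the vehicle range, and the difference of 0.70 ± 0.25 (SE) did not pass (adjusted p = 0.0789). Osgin1 passed without oxaliplatin 2 (0.0481) or oxaliplatin 3 (0.0421).

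Of the 3 superoxide dismutases Sod3 rose, Sod1 fell and Sod2 did not pass. Sod3 (chr5:52363791-52371418), secreted and bound to the extracellular matrix, had 1399, 1381, 1267 and 2165 normalized counts in vehicle samples and 2696, 2223, 2715, 5444 and 2820.1 in oxaliplatin samples. The groups did not overlap, with vehicle 4 and oxaliplatin 2 nearest to each other and oxaliplatin 4 far above the rest. Sod3 rose by a log2 fold change of 0.99 ± 0.24 (SE; adjusted p = 0.0210). It was 0.78 without oxaliplatin 4 and still passed, while adjusted p was 0.0526, 0.0655 and 0.0708 without vehicle 1, 2 and 3 in turn, and 0.110 with the erythroid score.

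Sod1 (chr16:90220754-90226329), the copper and zinc enzyme of the cytosol, had 19639, 21277, 21548 and 18293 normalized counts in vehicle samples and 14841, 15752, 13559, 12608 and 15302 in oxaliplatin samples. All oxaliplatin samples lay below all vehicle samples. Sod1 fell by 0.49 on the log2 scale (SE 0.12, adjusted p = 0.0147). Adjusted p was 0.0543 without vehicle 2, 0.0561 without vehicle 3, 0.0606 with the erythroid score and 0.0856 without the 3 samples of high atrial score, where the log2 fold change was -0.48. Sod2, the manganese enzyme of the mitochondrial matrix, ranged from 23045 to 31222 in vehicle samples and from 17143 to 29705 in oxaliplatin samples. Its difference of -0.26 had a 95% interval of -0.62 to 0.11 (adjusted p = 0.340).

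Of catalase and the 5 glutathione peroxidases measured, 2 rose and none fell (33.3% called, against 14.3% of all genes). Gpx7 (chr4:108400390-108406961), a peroxidase of the endoplasmic reticulum, had 397, 372, 411 and 361 normalized counts in vehicle samples and 556, 555, 652, 909 and 682 in oxaliplatin samples. The vehicle samples were close together and oxaliplatin 4 was highest. Gpx7 rose by a log2 fold change of 0.78 ± 0.15 (SE; adjusted p = 0.00478), and adjusted p ran from 0.00208 to 0.0187 over the fits that left out 1 sample.

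Gpx1 (chr9:108338903-108340343), the abundant selenium peroxidase of cytosol and mitochondria, had 4668, 4514, 4526 and 3555 normalized counts in vehicle samples and 6919, 5017, 6452, 6573 and 6948 in oxaliplatin samples. The groups did not overlap, although vehicle 4 stood low and oxaliplatin 2 stood nearest to the vehicle samples. Gpx1 rose by 0.56 ± 0.13 (SE; adjusted p = 0.0125), with adjusted p from 0.00266 to 0.0336 over the fits that left out 1 sample and 0.0383 with the erythroid score.

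**Figure D2:**
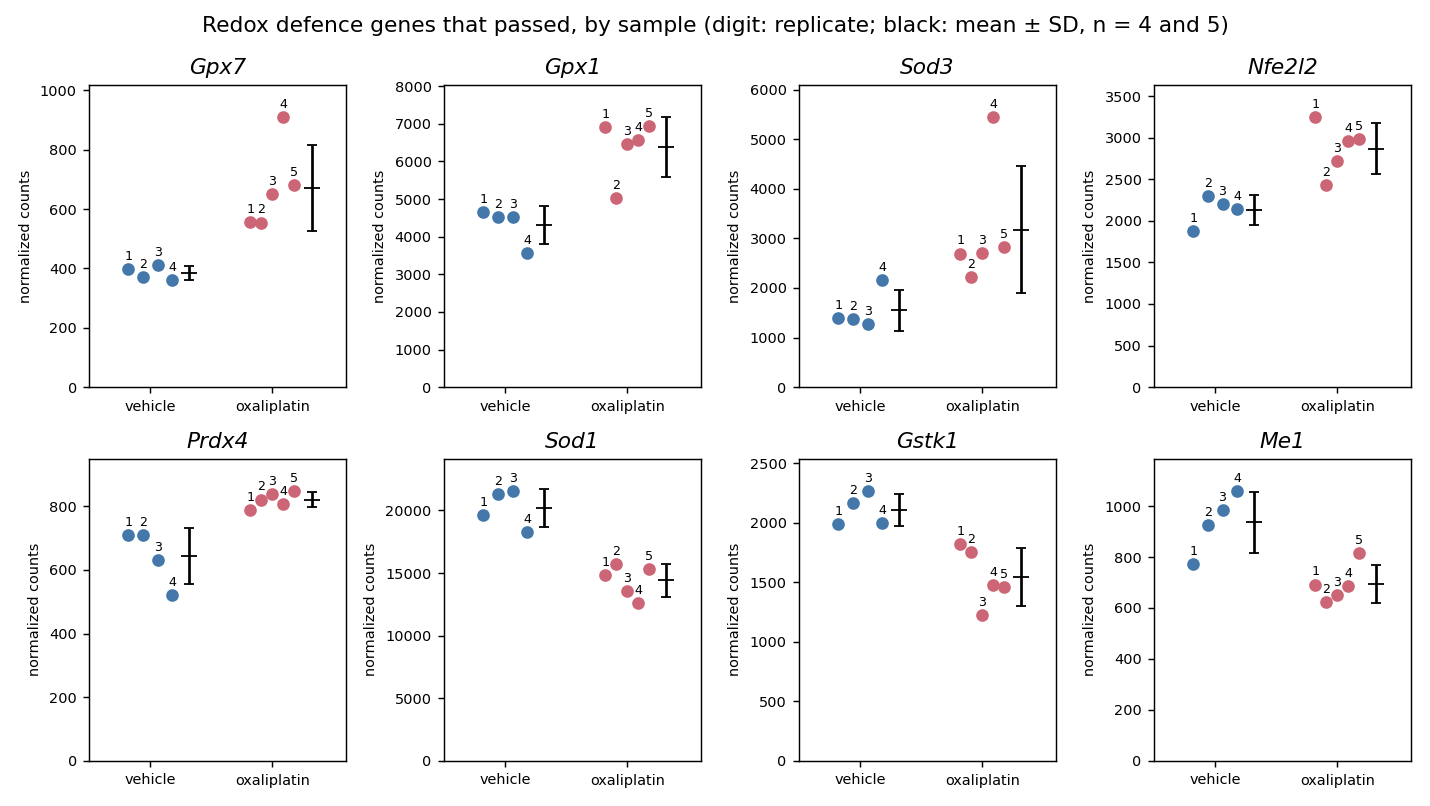
Normalized counts in each sample of the 8 genes that passed, from 0, with the replicate number above each point and the mean ± SD in black (n = 4 vehicle, n = 5 oxaliplatin). In 7 of the 8 the groups do not overlap, and Me1 is the exception. The 8 were chosen by the test on these same samples, so this adds no support. Over all genes tested the groups do not overlap in 14.9%.

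Gpx8, the second peroxidase of the endoplasmic reticulum, had 998, 1002, 982 and 785 in vehicle samples and 1008, 1258, 1253, 1214 and 1014 in oxaliplatin samples. Its groups did not overlap, but by a narrow gap, and the difference of 0.29 ± 0.12 (SE) did not pass (adjusted p = 0.128). Gpx4, the peroxidase of membrane lipid hydroperoxides that holds back ferroptosis, ranged from 24267 to 40589.7 in vehicle samples and from 22722 to 45753 in oxaliplatin samples, with a difference of -0.15 (95% interval -0.61 to 0.32, adjusted p = 0.70). Catalase (Cat), the peroxisomal enzyme, ranged from 6185 to 8398 and from 5904 to 8103, with a difference of -0.15 (adjusted p = 0.478).

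Gpx3 (chr11:54902453-54910377), the secreted peroxidase found in plasma, had the largest standard error of the 38 genes on the log2 scale. It measured 53329.5, 16259, 17563 and 20756 normalized counts in vehicle samples and 28038, 111270, 42239.7, 111830 and 25331 in oxaliplatin samples. The highest vehicle sample and the 2 highest oxaliplatin samples were those of high atrial score, vehicle 1, oxaliplatin 2 and oxaliplatin 4. Over all samples the difference of 1.13 ± 0.58 (SE) did not pass (adjusted p = 0.247). Without these 3 samples, the 3 remaining vehicle samples lay below the 3 remaining oxaliplatin samples, and the log2 fold change was 0.78 (adjusted p = 0.0332). After adjustment for the atrial score it was 0.86 (adjusted p = 0.0151). Nppa, the atrial natriuretic peptide and one of the 10 atrial markers, had 251480 normalized counts in vehicle 1, 546810 in oxaliplatin 2 and 608521 in oxaliplatin 4. In the other 6 samples Nppa had 10826 to 17998 in vehicle samples and 20847 to 81694 in oxaliplatin samples. Their atrial scores were -2.29 to -0.57 in vehicle samples and -3.77, 0.99 and -1.60 in oxaliplatin 1, 3 and 5. Oxaliplatin 3 was highest of these 6 in Nppa, atrial score and Gpx3. The part of atrial content in the remaining Gpx3 difference was not tested.

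**Figure D3:**
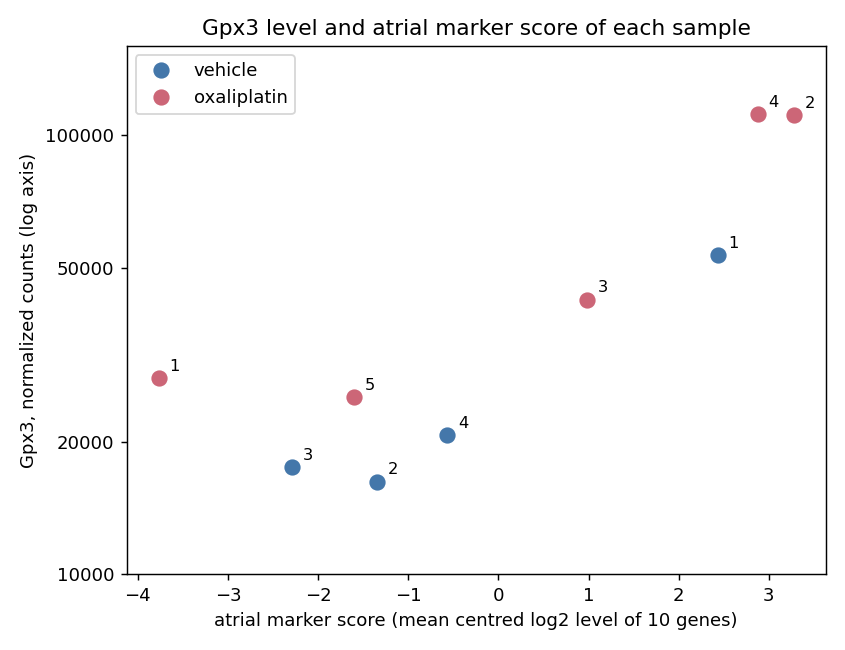
Gpx3 in normalized counts on a log axis against the atrial marker score of each of the 9 samples, with replicate numbers. Vehicle 1, oxaliplatin 2 and oxaliplatin 4 stand at the right with 53329.5, 111270 and 111830 normalized counts of Gpx3. Among the other 6 samples the 3 vehicle samples lie below the 3 oxaliplatin samples.

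Of the 6 peroxiredoxins, thiol peroxidases that are reduced by thioredoxin or glutathione, 1 rose (16.7% called, against 14.3% of all genes). Prdx4 (chrX:155323918-155340754), the form in the endoplasmic reticulum, had 709, 708, 631 and 522 normalized counts in vehicle samples and 787, 821, 839, 806 and 847 in oxaliplatin samples. The oxaliplatin samples were close together, above all vehicle samples. Prdx4 rose by 0.36 ± 0.11 (SE), at an adjusted p of 0.0487 that stood at the threshold. It was above 0.05 in each fit that left out 1 sample, from 0.0515 (without oxaliplatin 1) to 0.114 (without vehicle 3), after upper-quartile scaling (0.0615), after quantile normalization (0.0629), with the erythroid score (0.143) and without the 3 samples of high atrial score (0.107).

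The other 5 peroxiredoxins had log2 differences from -0.27 to -0.08 and none passed. Prdx5, found in mitochondria, peroxisomes and cytosol, ranged from 18807 to 23014 in vehicle samples and from 14764 to 23416 in oxaliplatin samples (-0.27, adjusted p = 0.255), and it passed without oxaliplatin 1 (-0.39, adjusted p = 0.0401). Mitochondrial Prdx3 gave -0.19 (adjusted p = 0.470) and Prdx6, which uses glutathione, -0.24 (0.288). The cytosolic Prdx1 and Prdx2 gave -0.14 (0.493) and -0.08 (0.741).

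Of 4 genes of glutathione synthesis and reduction tested, 0 passed in limma, and 0 had an unadjusted p under 0.05. Gclc, the catalytic subunit of the rate-limiting glutamate-cysteine ligase, had 51.4, 71.5, 67.8 and 104 normalized counts in vehicle samples and 82.4, 91.6, 83.2, 112 and 95.9 in oxaliplatin samples, a difference of 0.37 with a 95% interval of -0.11 to 0.85 (adjusted p = 0.294). The groups of Gclc overlapped through vehicle 4. Gclm, the modifier subunit, ranged from 98.3 to 157 and from 117 to 173, with a difference of 0.14 (adjusted p = 0.671). Gss, glutathione synthetase, ranged from 594 to 661 and from 516 to 813, with a difference of -0.01 and a 95% interval of -0.29 to 0.27 (adjusted p = 0.979). Gsr, which regenerates reduced glutathione from its disulfide with NADPH, ranged from 141 to 225 and from 127 to 186, with a difference of -0.32 (95% interval -0.72 to 0.07, adjusted p = 0.267).

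Of the 8 glutathione transferases, which couple glutathione to electrophiles, 1 fell and none rose (12.5% called, against 14.3% of all genes). Gstk1 (chr6:42245935-42250447), of the kappa class of peroxisomes and mitochondria, had 1989, 2164, 2266 and 1998 normalized counts in vehicle samples and 1821, 1754, 1224, 1478 and 1458 in oxaliplatin samples. All oxaliplatin samples lay below the vehicle samples, with oxaliplatin 1 and 2 nearest to them. Gstk1 fell by 0.46 on the log2 scale (SE 0.12, adjusted p = 0.0282). Adjusted p was 0.0137 with the erythroid score, 0.0561 without the 3 samples of high atrial score, 0.0792 and 0.0918 without vehicle 2 and 3, and 0.0644, 0.0619 and 0.0630 without oxaliplatin 3, 4 and 5.

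Gstp1, of the pi class, had 8556, 9098, 9276 and 8451 normalized counts in vehicle samples and 7413, 7736, 6485, 7529 and 6727 in oxaliplatin samples. The groups did not overlap, yet the difference of -0.30 ± 0.10 (SE) did not pass (adjusted p = 0.0700). It passed after quantile normalization (0.0287), with weights per sample (0.0122) and with the atrial score (0.0386). Mgst3, a microsomal member, had 14647 to 21356 in vehicle samples and 11067 to 20938 in oxaliplatin samples, with oxaliplatin 1 at the top of its group. Its difference of -0.46 ± 0.20 (SE) did not pass (adjusted p = 0.136), and without oxaliplatin 1 it was -0.62 (adjusted p = 0.0155). Gstm2 gave 0.31 (adjusted p = 0.186), Mgst1 0.11 (0.766), Gstm1 0.10 (0.687), Gstt1 -0.17 (0.654) and Gsta4 -0.20 (0.510). Gstp1, Gstm1 and Gstm2 have close relatives of similar sequence, so their values are uncertain where reads were split between copies in counting.

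Of 6 genes of the thioredoxin system 0 passed in limma, and 1 (Txnrd2) had an unadjusted p under 0.05. Txnrd2, mitochondrial thioredoxin reductase, had 1091, 1329, 1194 and 1174 normalized counts in vehicle samples and 1261, 791, 845, 701 and 1018 in oxaliplatin samples. Oxaliplatin 1 lay among the vehicle samples and the other 4 below them. The difference of -0.40 ± 0.16 (SE) did not pass (adjusted p = 0.103), and without oxaliplatin 1 it was -0.52 (adjusted p = 0.0169). Txn2, mitochondrial thioredoxin, ranged from 11653 to 16559 and from 9155 to 14143, with a difference of -0.32 (adjusted p = 0.18). The cytosolic reductase Txnrd1, a classical NRF2 target, ranged from 601 to 668 and from 573 to 673, with a difference of -0.05 (95% interval -0.27 to 0.16, adjusted p = 0.767). Cytosolic Txn1 gave -0.08 (0.672), the thioredoxin-binding protein gene Txnip 0.06 (0.849), and Srxn1, sulfiredoxin, which repairs overoxidised peroxiredoxins, 0.30 (95% interval -0.02 to 0.62, adjusted p = 0.200).

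The genes were also described by the place of the encoded protein, in a grouping made from textbook knowledge after these values were seen. The choice of members fixes much of what it shows, and it supports no result. Sod3, Gpx3, Gpx7, Gpx8 and Prdx4, of the endoplasmic reticulum or the extracellular space, had positive differences with a median of 0.78, and 3 of the 5 rose. Microsomal Mgst1 (0.11) and Mgst3 (-0.46) could be counted with them, which leaves 6 of 7 positive and a median of 0.36. Sod2, Txn2, Txnrd2, Prdx3, Prdx5, Gstk1 and Cat, of mitochondria or peroxisomes, had negative differences with a median of -0.27, and 1 of the 7 fell. Gpx1 (0.56) and Gpx4 (-0.15), found in mitochondria and elsewhere, could be counted with these, which leaves 8 of 9 negative and a median of -0.26. Over all 38 genes the groups did not overlap for 9 (6 above, 3 below), against 14.9% of all genes tested.

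**Figure D4:**
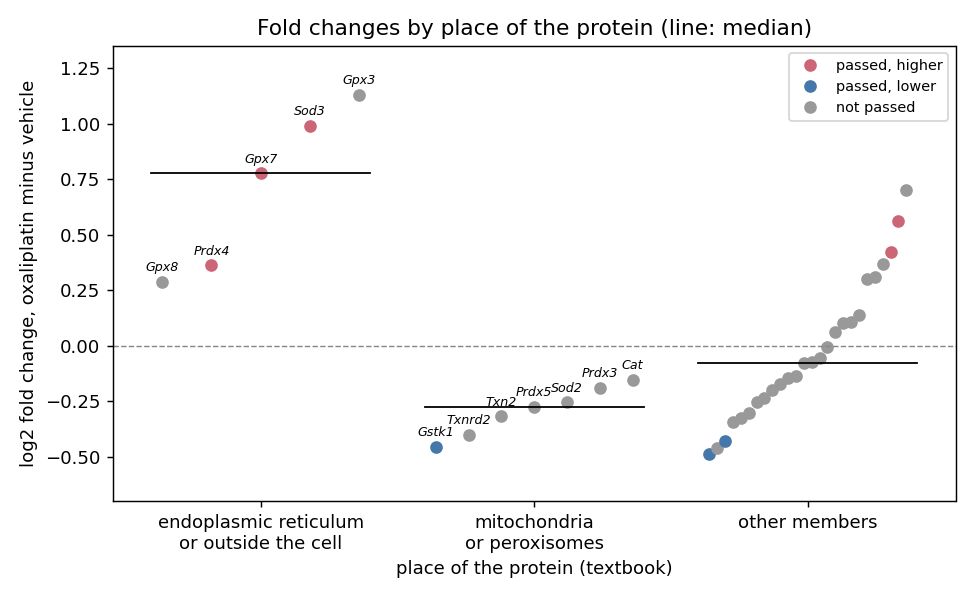
Log2 fold changes, oxaliplatin minus vehicle, of the 38 genes in 3 columns by place of the protein, with the median of each column as a line. The grouping was made after the values were seen. Gpx1 (0.56, also mitochondrial) and microsomal Mgst3 (-0.46) stand in the third column, and counting them with the first 2 columns would put a point on the other side of 0 in each.

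The median of the 7 genes Sod2, Txn2, Txnrd2, Prdx3, Prdx5, Gstk1 and Cat, as log2 level minus the vehicle mean, was 0.14 in oxaliplatin 1, -0.31 in oxaliplatin 2, -0.48 in oxaliplatin 3, -0.51 in oxaliplatin 4 and -0.17 in oxaliplatin 5, and ran from -0.19 to 0.16 in vehicle samples. Oxaliplatin 1 and 5 thus lay within the vehicle range, and the other 3 below it. The score of 12 cardiomyocyte markers was 0.08 to 0.35 in vehicle samples and 0.07, -0.28, -0.28, -0.38 and -0.0027 in oxaliplatin samples 1 to 5. Of these 12 markers Myh6, Myl2 and Fabp3 fell (25% called, against 14.3% of all genes) and all 12 had negative differences. The median of Sod3, Gpx3, Gpx7, Gpx8 and Prdx4 was 0.30, 0.53, 0.76, 1.24 and 0.41 in oxaliplatin samples 1 to 5, all above the vehicle range of -0.19 to 0.09. Both sets of genes were grouped after the values were seen, so the choice of members fixes much of what their medians show. The fibroblast score was -0.33, 0.21, 0.71, 1.21 and 0.22 in oxaliplatin samples 1 to 5 and -0.96 to -0.15 in vehicle samples. Oxaliplatin 3 and 4 were highest in the fibroblast score and in the median of Sod3, Gpx3, Gpx7, Gpx8 and Prdx4. The part of these cell markers in the differences of the redox genes was not tested.

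**Figure D5:**
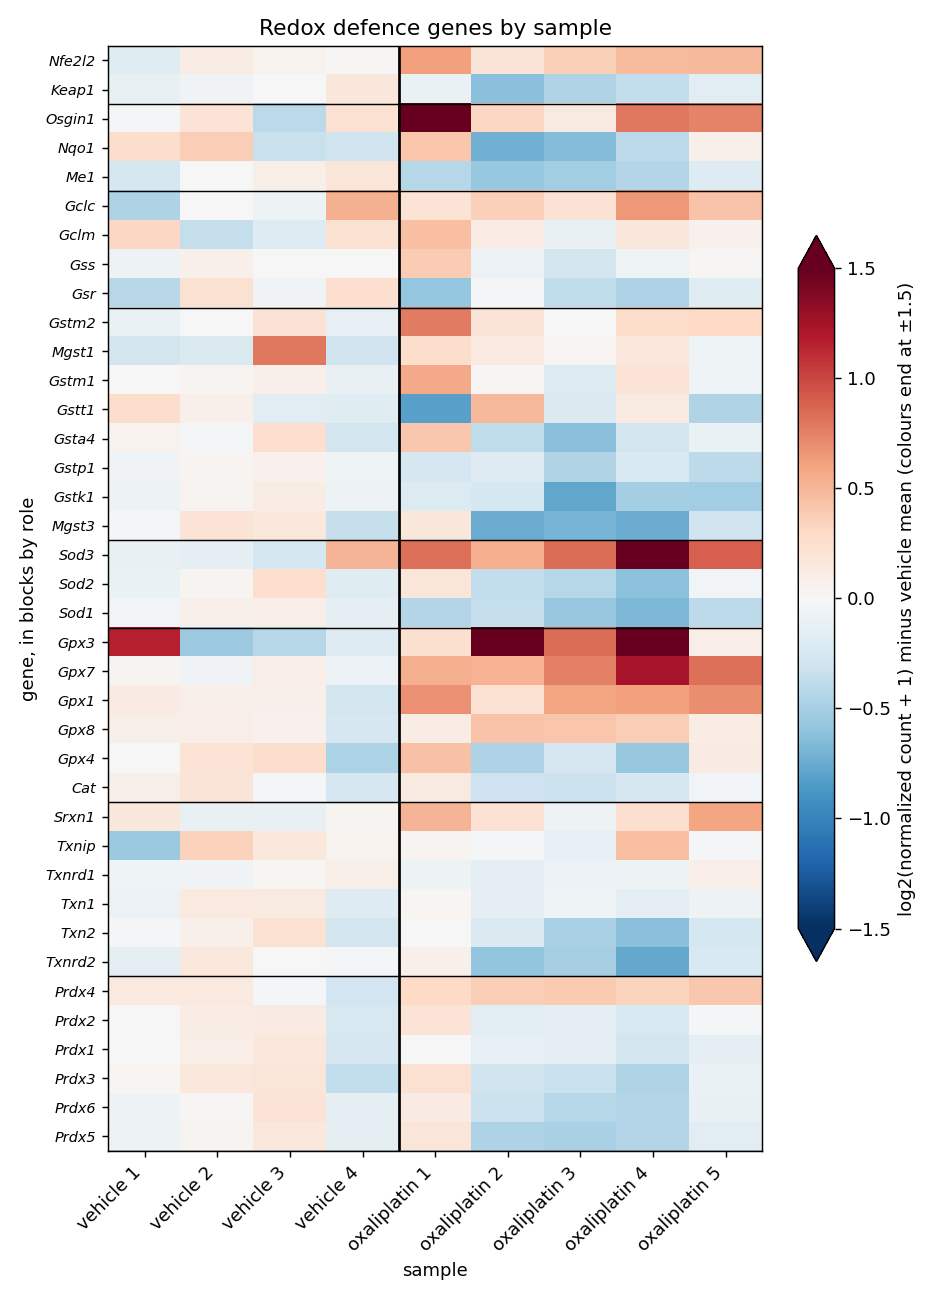
Log2(normalized count + 1) minus the vehicle mean for the 38 genes (rows, in blocks by role) in the 9 samples (columns), with colours that end at ±1.5. Gpx3 is high in vehicle 1, oxaliplatin 2 and oxaliplatin 4, and oxaliplatin 1 differs from the other oxaliplatin samples in genes such as Txnrd2, Mgst3 and Nqo1.

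Genes of other marker lists also passed. The share called was 20% of fibroblast, endothelial and macrophage markers each and 12.5% of smooth muscle and pericyte markers. It was 50% of epicardial, 25% of adipocyte and 100% of B cell markers tested, against 14.3% of all genes. Of 10 fibroblast markers Postn and Mfap5 rose, and the 10 summed to 22107 to 33192 normalized counts in vehicle samples and 29573 to 82226 in oxaliplatin samples. Pecam1 and Esam rose among 10 endothelial markers (18683 to 19558 against 21554 to 37341), and Pdgfrb among 8 smooth muscle and pericyte markers (14260 to 20853 against 20976 to 36719). Krt19, Wt1 and Msln rose among 6 epicardial markers (184 to 892 against 2529 to 5043), with Krt8 at 0 in some samples. Among 10 macrophage markers Cd68 rose and Cd163 fell (7812 to 9888 against 6408 to 16613), with 5 positive and 5 negative differences. The 3 B cell markers measured of 6 fell (262 to 456 against 33 to 155). Fabp4 rose among 5 adipocyte markers measured of 6 (14974 to 22778 against 26532 to 49661), with Plin1 and Ucp1 at 0 in some samples. Most of the adipocyte sum was Fabp4, with 14639 to 22620 in vehicle samples and 20235.5 to 49631 in oxaliplatin samples. The adipocyte score was -0.93 to -0.45 in vehicle samples and -1.79 to 3.82 in oxaliplatin samples, lowest in oxaliplatin 1. None of the 10 atrial markers passed by limma, and 0 had an unadjusted p under 0.05 (54458 to 462350 against 68699 to 952256, Bmp10 at 0 in some samples), and none of the 10 erythroid markers, of which 8 had an unadjusted p under 0.05 (226810 to 577551 against 11731 to 363742). Their part in the results was not tested beyond the fits with the atrial and erythroid scores.

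Pairs of genes with related functions were compared by the difference of their log2 levels within each sample, with a two-sided exact permutation test over 126 splits, whose smallest p is 0.0159. None of 12 pairs passed after adjustment over the 12, and 5 had an unadjusted p under 0.05. With this smallest p, a pair could pass only if several other pairs also had a small p. The lack of a pass therefore decides nothing about any single pair. The log2 ratio of Sod3 to Sod1 was -3.73 ± 0.45 (SD, n = 4) in vehicle samples and -2.25 ± 0.61 (n = 5) in oxaliplatin samples, a difference of 1.48 (exact p = 0.0159, adjusted 0.0762), and the groups did not overlap. The ratio of Gpx1 to Gpx4 was -2.98 ± 0.19 and -2.27 ± 0.34, a difference of 0.71 (exact p = 0.0159, adjusted 0.0762). Prdx4 against Prdx5 (0.64), Gpx7 against Gpx8 (0.49) and Gstm1 against Gstm2 (-0.21) each had an exact p of 0.0317 and the same adjusted value. The cytosolic against the mitochondrial partner gave 0.35 for Txnrd1 and Txnrd2 (exact permutation p = 0.0635), 0.24 for Txn1 and Txn2 (0.0794), -0.23 for Sod1 and Sod2 (0.111) and 0.06 for Prdx1 and Prdx3 (0.508). Mgst1 against Mgst3 gave 0.57 (exact permutation p = 0.0794), Gss against Gsr 0.32 (0.206) and Gclc against Gclm 0.23 (0.444).

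Levels could be compared between genes only per length of exon, taken as all bases in any exon of the GENCODE M21 model. This length joins the exons of all annotated transcripts, for example 3970 bases for Sod1 and 10008 for Sod2. It can exceed the length of the transcript present, which lowers the value, so the order of genes depends on it. In vehicle samples the highest were Gpx4 with 19965 ± 4256 normalized counts per kilobase (SD, n = 4), Mgst3 with 17115 ± 2788, Gpx3 with 14880 ± 9746 and Gstm1 with 10732. In oxaliplatin samples Gpx3 stood at 35158 ± 24331 and Gpx4 at 18337 ± 5544 (SD, n = 5). The order of genes was not tested in either group. These SDs are spreads between samples and leave out that the genes were measured in the same samples. The lowest in vehicle samples were Gclc at 19.6 ± 5.83 and Gclm at 20.4 ± 4.55 per kilobase, the subunits of one ligase.

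Other genes of the pathway were taken from 7 lists, of which 137 of 155 genes were tested, with 14 higher and 8 lower (16.1% called, against 14.3% of all genes). The largest difference among those named was that of Hmox1, heme oxygenase 1, which breaks down heme and is induced through NRF2 and by loss of BACH1. It had 278, 241, 243 and 319.7 normalized counts in vehicle samples and 764, 547, 945, 1392 and 999 in oxaliplatin samples, with no overlap. Hmox1 rose by 1.72 ± 0.22 (SE; adjusted p = 0.000883) and passed in every alternative tried. Of 30 further NRF2 targets tested, Hmox1 among them, 6 rose and 2 fell (26.7% called, against 14.3% of all genes). Among those that rose were Ugdh, which makes UDP-glucuronate (1.36, adjusted p = 0.00150), Akr1b8, an aldo-keto reductase (1.15, 0.00296), and Ephx1, microsomal epoxide hydrolase (0.75, 0.00160). Tkt (0.58, 0.00909) and Ptgr1 (1.02, 0.0128) also rose, and Ces1d (-1.21, 0.00540) and Abcc1 (-0.50, 0.0423) fell. These last 4 were named after their values were seen.

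Of 15 further NRF2 regulators, Nfe2l1 fell and none rose (6.67% called, against 14.3% of all genes). Nfe2l1, which encodes the related factor NRF1 that drives proteasome genes, had 4893 to 6456 normalized counts in vehicle samples and 3298 to 3962 in oxaliplatin samples (-0.59 ± 0.11 SE, adjusted p = 0.00503). Nfe2l2 and Nfe2l1 thus changed in opposite directions, each with groups that did not overlap. Bach1, a repressor at antioxidant response elements, had 139 to 212 and 112 to 133 without overlap, but its difference of -0.47 did not pass (adjusted p = 0.0740). Maff, a small MAF gene named after its value was seen, averaged 26.1 normalized counts in vehicle samples and 71.5 in oxaliplatin samples. Its groups overlapped, and its difference of 1.46 did not pass (adjusted p = 0.0501). Of the 15 regulators, 5 had positive and 10 negative differences.

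Among 26 other glutathione genes 2 rose and 3 fell (19.2% called, against 14.3% of all genes). Dpep1, a dipeptidase that splits the cysteinyl-glycine released from glutathione, rose (0.66, adjusted p = 0.0154), and Gsta1 (-1.0, 0.0256), Ggct (-0.57, 0.0282) and Gstp2 (-0.53, 0.0355), the close relative of Gstp1, fell. Gstt3, named after its value was seen, rose (0.53, 0.0414). Ggct was above 0.05 without vehicle 1, 2 or 3 or oxaliplatin 3, 4 or 5 (adjusted p up to 0.0817), and Gsta1 without any 1 vehicle sample or oxaliplatin 3 or 5 (up to 0.0788). Gstp2 was above it without vehicle 1, 2 or 4 or oxaliplatin 3 or 5 (up to 0.117), and with the erythroid score (0.154) or the replicate block (0.0763). Without the 3 samples of high atrial score none of the 3 passed (0.0525 for Ggct, 0.0742 for Gsta1 and 0.0626 for Gstp2), at log2 fold changes of -0.57, -0.98 and -0.64. Ggct was 0.0507 without trend and robust moderation.

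Among 23 genes of thiol repair, 3 rose and 1 fell (17.4% called, against 14.3% of all genes). Txndc12, a thioredoxin-like protein of the endoplasmic reticulum (0.55, 0.00785), Pon2 (0.49, 0.0138) and Sesn2, a stress-induced sestrin (0.90, 0.0210), rose and Msrb2, a mitochondrial methionine sulfoxide reductase (-0.47, 0.0487), fell. With the erythroid score none of these 4 passed (adjusted p = 0.103 for Pon2, 0.119 for Txndc12, 0.111 for Sesn2 and 0.142 for Msrb2), while their log2 fold changes were 0.50, 0.46, 0.96 and -0.55. Sesn2 was 0.0699 with the replicate block, and Msrb2 was 0.0559 with it, 0.0884 without trend and robust moderation and 0.199 without the 3 samples of high atrial score. Sesn2 was also above 0.05 without vehicle 2 (0.0711) or oxaliplatin 5 (0.0503), and Msrb2 in 7 of 9 fits that left out 1 sample, up to 0.15 without vehicle 3, all but those without vehicle 4 or oxaliplatin 1.

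None of 10 genes of NADPH supply passed by limma, and 5 had an unadjusted p under 0.05, as had 3970 of all 13788 genes tested. Nearest were H6pd, which makes NADPH in the endoplasmic reticulum (0.52, adjusted p = 0.0609), and Nnt, the mitochondrial transhydrogenase, with 17842 to 22169.5 normalized counts in vehicle samples and 12684 to 18454 in oxaliplatin samples (-0.40, adjusted p = 0.0668). H6pd passed without vehicle 4 (0.0384) or oxaliplatin 1 (0.0221), and Nnt without oxaliplatin 1 (0.0183). H6pd also passed with weights per sample (0.00337), the replicate block (0.0471) and the atrial score (0.0499). Nnt also passed with weights (0.00657), quantile normalization (0.0196), the atrial score (0.0314) and upper-quartile scaling (0.0497). Of 18 other selenoprotein genes 5.56% were called, against 14.3% of all genes. Selenof, of the endoplasmic reticulum, rose (0.47, 0.0250), though not without vehicle 3 (0.0558), oxaliplatin 3 (0.0593) or oxaliplatin 4 (0.0589). Selenof was also above 0.05 with the erythroid score (0.0628), without the 3 samples of high atrial score (0.0781), with the replicate number as a block (0.0680) and without trend and robust moderation (0.0501). Of 15 genes for sources of oxidants 20% were called, against 14.3% of all genes. Ero1l, the oxidase of the endoplasmic reticulum that yields hydrogen peroxide (0.67, 0.00724), and Maoa, monoamine oxidase A (0.68, 0.0304), rose. Maoa was above 0.05 without vehicle 1, 2 or 3 or oxaliplatin 2, 3 or 4 (up to 0.0938). Adjusted p of Maoa was 0.241 with the erythroid score, at a log2 fold change of 0.58, and 0.255 when the 3 samples of high atrial score were left out, at 0.47. Nos2, inducible nitric oxide synthase, had 268 to 336 normalized counts in vehicle samples and 70.8 to 205 in oxaliplatin samples and fell by 1.49 on the log2 scale (adjusted p = 0.00471).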

How the data were processed

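The authors deposited 1 table of normalized gene counts, a signal for each gene in each sample, named so per the file headers. The submitters' processing notes list STAR 2.5.1a, Partek and DESeq2 and give none a role, and libraries were SMARTer, per the labels' protocols. Build, annotation and strand setting: not given in the sources used here. Reads shared by overlapping, antisense or near-identical genes may therefore be misassigned. Low genes are missing, since each row reached at least 40.6 in some sample. Values of 1 to 1000 estimated reads were whole within 0.02 in 73.0% to 75.9% of cases, so no count test was used.

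The titles gave the groups. Limma 3.58.1 (R 4.3.3; trend, robust) compared log2(normalized count + 1) in 13788 genes of mean 10 or more, two-sided, with Benjamini-Hochberg adjustment over all of them and a threshold of 0.05. The pseudocount of 1 shrinks the fold changes of low genes. The steps were tested on simulated data. All listed genes present are named. In each further list up to 4 genes that passed, by smallest p, could be named, or the 2 of smallest p where none passed, with Hmox1, Nnt and Bach1 added, and the rest are given by counts. The genes described, the lists and this rule were chosen with earlier results of these data known, and the grouping by place of the protein after the values were seen. Alternatives were pseudocounts of 0.1 and 10, filters, scalings, limma settings, a replicate block, marker scores as covariates, a threshold of 0.1 and leaving out samples. GENCODE M21 gene models on GRCm38 matched all 38 symbols, and promoters are from RefSeq.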

Additional observations from a re-analysis of the deposited data

Results flagged for a closer look

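Within a group, 1 sample stood apart from the others by Dixon's test in 7 of 76 sets of values (38 genes in each group), where chance gives about 1 in 20. Oxaliplatin 4 was the highest of its group for Sod3, at 5444 normalized counts, and for Txnip, at 16020. Vehicle 4 was the lowest of its group for Gpx1, at 3555, and for Gpx8, at 785. Oxaliplatin 2 was the lowest of its group for Gpx1, at 5017. Vehicle 3 was the highest for Mgst1, at 4982, and oxaliplatin 5 the highest for Txnrd1, at 673. Of these genes Sod3 and Gpx1 passed. Sod3 also passed without oxaliplatin 4, and Gpx1 without vehicle 4 or without oxaliplatin 2, each left out alone.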

How the results depend on the processing

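Of all genes tested, 1975 were higher and 1566 lower with weights per sample, 747 and 217 with the erythroid score as a covariate, 1054 were lower with the atrial score and 1185 at a threshold of 0.1, and leaving out 1 sample gave 789 (without vehicle 3) to 1508 higher and 321 to 880 lower (373 without vehicle 2, 321 without vehicle 3, 397 without oxaliplatin 4). Of the 38 genes, 3 were higher with the replicate block, 2 with the erythroid score, 8 with the atrial score and 2 to 5 without 1 sample (2 without vehicle 1 or 3, and 3 without vehicle 2, oxaliplatin 4 or 5). The number lower was 6 after quantile normalization, 1 without trend and robust moderation, 10 with weights per sample, 1 with the erythroid score, 5 with the atrial score, 0 without the 3 samples of high atrial score, 5 at a threshold of 0.1 and 0 to 7 without 1 sample (0 without vehicle 2 or 3, 1 without oxaliplatin 3 or 4, 7 without oxaliplatin 1). Of the other pathway genes, 31 were higher with weights, 6 with the erythroid score and 25 at a threshold of 0.1, and 11 to 18 without 1 sample. Those lower were 19 after quantile normalization, 5 without trend and robust moderation, 33 with weights, 15 with the atrial score, 5 without the 3 samples, 5 with the erythroid score, 20 at a threshold of 0.1 and 3 to 19 without 1 sample (3 without vehicle 2, 4 without vehicle 1, vehicle 3 or oxaliplatin 5, 5 without oxaliplatin 3 or 4, 19 without oxaliplatin 1). The cause was not tested.

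The sign changed only for differences that did not pass. Without the 3 samples of high atrial score the log2 difference was 0.034 for Nqo1, 0.014 for Gss, -0.014 for Mgst1, 0.10 for Gpx4, 0.012 for Prdx2, -0.22 for Txnip, -0.032 for the pair Prdx1/Prdx3 and -0.12 for Gclc/Gclm. With the erythroid score it was -0.056 for Gstm1, -0.066 for Mgst1 and -0.039 for Txnip, with the atrial score 0.033 for Gss, and with weights -0.0094 for Gstm1. Leaving out 1 sample gave -0.10 to 0.060 for Gss, -0.010 to 0.18 for Gstm1, -0.12 to 0.18 for Txnip and -0.030 to 0.35 for Gclc/Gclm.

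The replicate numbers are shared by label only: deviations of same-numbered samples correlated at -0.273 to 0.25. With the number as a replicate block, over replicates 1 to 4, Sod3, Gpx1 and Gpx7 were higher and Sod1 and Me1 lower. Passing pairs were not counted without samples, where the exact test loses splits. For 24 of the 30 genes that did not pass, the unadjusted 95% interval holds 0. The rest had an unadjusted p under 0.05 in limma and did not pass after adjustment over all genes. The width of each interval, such as -0.21 to 2.47 for Gpx3, limits which changes 4 and 5 samples can exclude.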
